A study of Homo sapiens with 2 samples.

Results

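LEFTY-poor ordinary cells are the few cells of 2 libraries of H9 human embryonic stem cells that held almost no transcript of LEFTY1 or LEFTY2 although they were deeply read and passed the same filters as the other cells. An ordinary cell was a barcode with at least 1000 genes, at least 20000 UMIs (unique molecular identifiers, one per captured transcript) and a mitochondrial share from 2% to below 20%. It also had under 5 UMIs of CER1 and under 2 of PAX6, genes that mark other cells of the culture. LEFTY-poor cells were those with at most 2 raw UMIs of LEFTY1 and LEFTY2 together. There were 166 among 9409 ordinary cells, out of 24729 barcodes in all, and they were set against the 8665 LEFTY-rich cells with 10 or more LEFTY UMIs, always within one library. The 578 cells with 3 to 9 LEFTY UMIs belonged to neither class.

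The study transfected naive H9 cells, an established human cell line kept in RSeT medium, with 25 nM of a fluorescein-labelled oligonucleotide and sorted the labelled cells. One library received ASO-L1 and the other SO-L1. In work on LINE1 RNA such names stand for an antisense oligonucleotide and its sense counterpart, but the labels do not spell them out. Both libraries shared everything else that the labels give. The medium held 10 nM DZNep and 5 nM TSA. Until 24 h it also held the ROCK inhibitor Y-27632 (10 µM), 0.7 µM of trans-ISRIB and 5 µM of emricasan. At 48 h, 100000 labelled cells were sorted per library and 12000 were aimed for in a 10x Genomics 3′ library, at over 65000 reads per cell. Trans-ISRIB blunts the integrated stress response, emricasan blocks caspases, and the sort kept cells that had taken up label, in both libraries alike. With 1 library per oligonucleotide there is no replicate, and no p-value is given. Every interval below is a 95% interval that covers counting error only.

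NODAL is a secreted ligand of the TGF-beta family that binds activin receptors together with the co-receptor TDGF1 (CRIPTO). The receptors phosphorylate SMAD2 and SMAD3, which join SMAD4 and, on many targets, the DNA-binding factor FOXH1. In human pluripotent cells this signal helps to sustain the undifferentiated state, and it switches on NODAL itself along with its own inhibitors. LEFTY1 and LEFTY2 are 2 of these inhibitors, secreted proteins that keep NODAL from its receptors, and both are among the direct targets of the pathway. LEFTY1 lies at chr1:225886282-225911382 and LEFTY2 at chr1:225936598-225941489, both on the minus strand of GRCh38 and protein-coding in GENCODE.

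NODAL and PMEPA1 were among the Nodal genes lower in these cells, and their promoters are shown because short letters bound by SMAD proteins and by FOXH1 can be read in them. Each RefSeq window (GRCh38.p14) runs from 250 bases before to 50 bases after an annotated start, on the minus strand for both genes, at chr10:70441632-70441931 for NODAL and chr20:57710528-57710827 for PMEPA1. Capitals mark CAGAC, part of the SMAD-binding letters, and TGTGGATT, the reverse of AATCCACA, a word bound by FOXH1.
NODAL: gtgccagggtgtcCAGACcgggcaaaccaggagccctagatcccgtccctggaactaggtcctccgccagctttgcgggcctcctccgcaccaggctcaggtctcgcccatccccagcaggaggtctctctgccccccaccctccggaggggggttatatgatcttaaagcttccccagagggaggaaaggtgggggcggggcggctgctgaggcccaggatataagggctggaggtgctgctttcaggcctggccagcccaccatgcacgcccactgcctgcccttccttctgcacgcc
PMEPA1: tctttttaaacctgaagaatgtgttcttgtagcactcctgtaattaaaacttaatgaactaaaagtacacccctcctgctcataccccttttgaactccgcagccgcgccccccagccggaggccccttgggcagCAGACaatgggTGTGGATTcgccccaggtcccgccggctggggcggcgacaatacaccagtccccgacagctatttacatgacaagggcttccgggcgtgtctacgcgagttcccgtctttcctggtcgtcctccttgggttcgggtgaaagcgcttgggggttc
The NODAL window held CAGAC once and neither FOXH1 word. The PMEPA1 window, 1 of 4 listed for that gene and chosen because it holds a FOXH1 word, held CAGAC once and the FOXH1 word once, with no overlap. The 12 genes named below as lower in LEFTY-poor cells had 23 promoter windows between them. CAGAC, searched on both strands, was in 10 of the 23, against 45.3% of 35116 promoters of the same length. The FOXH1 word AATCCACA was in 1 of 23, against 0.817% of all, AATACACA in 0 of 23, against 0.766%, and TATAAA in 1 of 23, against 11.5%. These are matches of letters and show no binding.

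The share of LEFTY-poor cells was 2.25% in ASO-L1 (119 of 5291 ordinary cells, interval 1.87 to 2.69%) and 1.14% in SO-L1 (47 of 4118, 0.840 to 1.51%). The median ordinary cell held 50 LEFTY UMIs in ASO-L1 and 46 in SO-L1. Counts around the limit ran on without a gap. In ASO-L1 36, 40 and 43 cells had 0, 1 and 2 LEFTY UMIs, and 35 and 47 cells had 3 and 4. In SO-L1 the same counts were 6, 21 and 20 cells inside the limit and 32 and 33 cells just outside it. LEFTY2 gave most of what was left, with 100 UMIs over the LEFTY-poor cells of ASO-L1 and 45 over those of SO-L1, against 26 and 16 UMIs of LEFTY1. LEFTY1 was at 0 in 96 of 119 cells in ASO-L1 and in 35 of 47 in SO-L1, and both genes were at 0 in 36 and 6 cells. The longest transcripts of both genes share a run of 300 identical bases. Their last 400 bases, nearest the end that a 3′ library reads, were 51.4% identical, with a longest shared run of 7 bases.

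**Figure D1:**
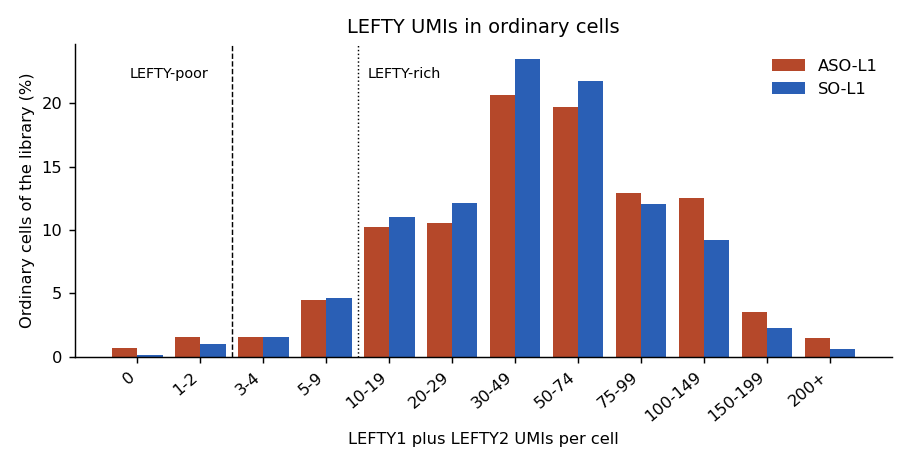
Share of ordinary cells of each library (vertical axis, percent) by the sum of LEFTY1 and LEFTY2 UMIs per cell (horizontal axis, classes of unequal width), with ASO-L1 in red and SO-L1 in blue. The LEFTY-poor cells form the thin low end, 2.25% of ASO-L1 and 1.14% of SO-L1, of a distribution with medians of 50 and 46 UMIs.

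The share was largest among the shallowest cells. From the shallowest to the deepest of 4 equal groups of ordinary cells it was 3.55%, 2.12%, 1.89% and 1.44% in ASO-L1 and 2.14%, 0.875%, 1.07% and 0.485% in SO-L1. LEFTY-poor cells had a median of 51579 UMIs, against 57093 in LEFTY-rich cells, in ASO-L1, and of 40641, against 47126.5, in SO-L1. The median mitochondrial share was 7.44%, against 7.52%, in ASO-L1, and 9.59%, against 9.05%, in SO-L1. With every cell thinned to 20000 UMIs, 6.52% of ASO-L1 and 4.25% of SO-L1 cells had at most 2 LEFTY UMIs, and 1.87% and 0.874% had none. Cells with little or no LEFTY RNA were more frequent elsewhere among the barcodes: at or below 2 LEFTY UMIs were 611 of 1950 deep ASO-L1 barcodes with under 2% mitochondrial UMIs (31.3%) and 262 of 1280 in SO-L1 (20.5%). Of cells past the CER1 limit, 10 of 654 in ASO-L1 (1.53%) and 0 of 16 in SO-L1 were as poor in LEFTY.

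Libraries shared barcodes, which touches several values below. Of the barcodes, 6105 were in both files, and 3254 ordinary cells of ASO-L1 and 639 of SO-L1 carried one. Of those shared, 791 had under 1000 genes in ASO-L1 and 5040 in SO-L1. There were 6 that were ordinary in both files and 0 that were LEFTY-poor in both. Among LEFTY-poor cells, 59 of 119 in ASO-L1 and 3 of 47 in SO-L1 carried a shared barcode. Without shared barcodes the share of LEFTY-poor cells was 2.95% in ASO-L1 (60 of 2037) and 1.26% in SO-L1 (44 of 3479). Barcodes with under 1000 genes, which may hold free RNA or, where shared, RNA of the other library, held LEFTY at 831 CPM in ASO-L1 and 1029 CPM in SO-L1, where CPM means UMIs of a gene per 1e6 UMIs of nuclear genes in the same set of barcodes. LEFTY-poor cells held 22.2 and 34.5 CPM, 2.67% and 3.36% of those levels, against 1163 and 1273 CPM in LEFTY-rich cells. Doublets were not called.

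Pluripotency markers were present in the cells of both classes. All 119 and all 47 LEFTY-poor cells, and all LEFTY-rich cells, held at least 5 UMIs of the panel POU5F1, SOX2, NANOG, SALL4, LIN28A, DPPA4, TDGF1 and L1TD1, and the panel summed to 3177 CPM, against 3592 CPM in LEFTY-rich cells, in ASO-L1, and to 3498 CPM, against 3583 CPM, in SO-L1. POU5F1, the central pluripotency factor, stood at 965 CPM in LEFTY-poor and 1048 CPM in LEFTY-rich cells of ASO-L1 (ratio 0.921, interval 0.897 to 0.946) and at 1097 and 1040 CPM in SO-L1 (1.05, 1.01 to 1.10). SOX2 had ratios of 0.817 and 0.908 and NANOG of 0.748 and 0.824 in ASO-L1 and SO-L1. None of the 20 core pluripotency genes measured in both libraries was past 1.5-fold in both. Of all genes 1.83% were higher and 0.739% lower in both, so a count of 0 is near those shares. PRDM14, 1 of the 20, was lower past 1.5-fold in SO-L1. The medians of the list were -0.13 and 0.05 on the log2 scale.

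Markers of other lineages were rare. Blood markers came to 1 UMI in all LEFTY-poor cells of ASO-L1 and 0 in SO-L1, with PTPRC and HBG1 at 0 in both. Trophectoderm and amnion markers reached 5 UMIs in 1 of 119 LEFTY-poor cells, against 12 of 4851 LEFTY-rich cells, in ASO-L1, and in 0 of 47, against 1 of 3814, in SO-L1. Neuroectoderm markers did so in 1 of 119, against 9 of 4851, in ASO-L1, and in 2 of 47 (4.26%), against 43 of 3814 (1.13%), in SO-L1. Endothelial markers did so in 1 of 119, against 75 of 4851, and in 0 of 47, against 7 of 3814, and fibroblast markers in 7 of 119, against 214 of 4851, and in 1 of 47, against 83 of 3814. The summed level of each of these 4 panels was higher in LEFTY-poor cells of both libraries. The trophectoderm panel summed to 10.6 CPM, against 4.87 CPM in LEFTY-rich cells, in ASO-L1, and to 7.36 CPM, against 4.54 CPM, in SO-L1. The neuroectoderm panel summed to 9.15 CPM, against 3.0 CPM, in ASO-L1, where 1 cell gave 61.5% of its UMIs in LEFTY-poor cells, and to 14.2 CPM, against 8.03 CPM, in SO-L1. The endothelial and fibroblast sums were 16.7 and 29.9 CPM, against 13.0 and 23.6 CPM, in ASO-L1, and 11.3 and 30.01 CPM, against 8.14 and 24.0 CPM, in SO-L1. The part of such cells in the values below was not tested. Primitive and definitive endoderm markers did so in 8 of 119 LEFTY-poor cells, against 420 of 4851 LEFTY-rich cells, in ASO-L1, and in 0 of 47, against 335 of 3814, in SO-L1. Mesendoderm markers, of which several are Nodal targets, reached 5 UMIs in 1 of 119, against 166 of 4851, in ASO-L1, and in 0 of 47, against 31 of 3814, in SO-L1. MIXL1 held 4277 of the 4759 UMIs of that panel in ASO-L1 LEFTY-rich cells. GSC and LHX1, of the same panel, had 8 and 5 UMIs in LEFTY-poor cells of ASO-L1, at 1.41 and 0.880 CPM, against 0.253 and 0.172 CPM in LEFTY-rich cells. Markers of 8-cell-stage embryos reached 5 UMIs in 8 of 119 LEFTY-poor cells, against 62 of 4851 LEFTY-rich cells, in ASO-L1, and in 1 of 47, against 1 of 3814, in SO-L1.

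For the comparison of levels, a gene was measured where its mean level over both classes gave at least 20 expected UMIs in each class. It was counted where LEFTY-poor over LEFTY-rich cells passed 1.5-fold. A gene rare in either class could thus be measured only through its level in the other, which partly fixed the counts below. LEFTY1, LEFTY2, CER1, PAX6 and mitochondrial genes were left out. In ASO-L1 1223 of 12952 genes were higher in LEFTY-poor cells (9.44%) and 466 lower (3.6%). In SO-L1 510 of 9484 were higher (5.38%) and 250 lower (2.64%). Of 9476 genes measured in both libraries, 173 were higher in both (1.83%), 70 lower in both (0.739%) and 6 past 1.5-fold in opposite directions. The median gene did not move, at 0.00 on the log2 scale in both libraries. All genes were read in the same cells that LEFTY UMIs had sorted, so these counts are a description of those cells.

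NODAL itself was the leading ligand among the genes lower in LEFTY-poor cells. In ASO-L1 it stood at 132 CPM in LEFTY-poor cells, against 254 CPM in LEFTY-rich cells, a ratio of 0.520 (0.483 to 0.558). In SO-L1 it stood at 144 CPM, against 275 CPM, a ratio of 0.525 (0.462 to 0.594). The libraries thus gave nearly the same ratio. At 20000 UMIs per cell the lowest, median and highest NODAL counts were 0, 2 and 12 UMIs in LEFTY-poor cells, against 0, 4 and 21 in LEFTY-rich cells, in ASO-L1, and 0, 2 and 10, against 0, 5 and 20, in SO-L1. Single cells of both classes overlapped up to the highest LEFTY-poor counts, 12 and 10 UMIs. The lower and upper quartiles were 0.5 and 4 UMIs in LEFTY-poor cells, against 3 and 6 in LEFTY-rich cells, in ASO-L1, and 1 and 4, against 3 and 7, in SO-L1. More of the LEFTY-poor cells lacked the transcript. A NODAL UMI was found at that depth in 74.8% of LEFTY-poor cells, against 96.9% of LEFTY-rich cells, in ASO-L1, and in 80.9%, against 97.0%, in SO-L1. TDGF1, the co-receptor, had ratios of 0.871 in ASO-L1 and 0.976 in SO-L1, and GDF3, a related ligand, of 0.828 and 1.01. Neither was past 1.5-fold.

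No measured receptor gene was past the fold, though few were measured. Of the receptors of Nodal and activin and the convertases that cut their precursors, 0 of 10 measured in ASO-L1 and 0 of 6 measured in SO-L1 were past 1.5-fold in either direction. Of all genes 9.44% were higher and 3.6% lower in ASO-L1, and 5.38% and 2.64% in SO-L1, so with so few genes a count of 0 is near those shares. The list medians were 0.03 and 0.06 on the log2 scale. The type II receptor ACVR2B had ratios of 0.861 (0.750 to 0.984) in ASO-L1 and 0.808 (0.638 to 1.01) in SO-L1. Among the 10 effectors, SMAD3 alone was past 1.5-fold in both libraries, against 0.739% of all genes lower in both. It stood at 41.9 CPM in LEFTY-poor cells, against 74.7 CPM in LEFTY-rich cells, in ASO-L1 (0.560, 0.491 to 0.637) and at 53.2 CPM, against 90.7 CPM, in SO-L1 (0.587, 0.474 to 0.719). Its partner SMAD2 had ratios of 0.966 and 0.953, SMAD4 of 1.10 and 0.968 and FOXH1 of 0.831 and 0.851. TGIF2, a repressor that binds SMAD proteins, had ratios of 0.606 and 0.730.

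Feedback genes of the pathway split. PMEPA1 and LDLRAD4, membrane proteins that hold SMAD2 and SMAD3 back, and the inhibitory SMAD7 were lower in both libraries, 3 of 9 genes of their list measured in both, against 0.739% of all genes. PMEPA1 stood at 85.9 CPM in LEFTY-poor cells, against 146 CPM in LEFTY-rich cells, in ASO-L1 (0.589, 0.538 to 0.644) and at 114 CPM, against 179 CPM, in SO-L1 (0.635, 0.550 to 0.729). SMAD7 stood at 23.9 and 44.2 CPM in ASO-L1 (0.541) and at 19.8 and 32.0 CPM in SO-L1 (0.620). LDLRAD4 was rarer, at 5.81 and 18.5 CPM in ASO-L1 (0.315) and 6.79 and 21.5 CPM in SO-L1 (0.316). SKIL, a SMAD co-repressor and often a quick target of the pathway, was not lower, with ratios of 1.06 and 1.22. None of the 9 was higher in both, and the list medians were -0.11 in ASO-L1 and 0.14 in SO-L1 on the log2 scale, so the list as a whole did not move one way. Among further Nodal targets, FGF8 and the mesendoderm factor MIXL1 were measured in ASO-L1 alone. FGF8 stood at 5.28 CPM in LEFTY-poor cells, against 18.8 CPM in LEFTY-rich cells, and MIXL1 at 4.22 CPM, against 15.7 CPM. FGF8 and MIXL1 were chosen after their values were seen. Of the 14 genes of the feedback and target list measured in ASO-L1, 4 were lower, FGF8 among them, against 3.6% of all genes, and 2 were higher, against 9.44%, among them the matrix protein CCN1, at 30.1 CPM, against 16.7 CPM. Of 3 mesendoderm genes measured in ASO-L1 MIXL1 was lower, the mesenchymal factor TWIST1 was higher at 27.1 CPM, against 8.38 CPM, and the list median was 0.32 on the log2 scale. The 22 genes of that list summed to 56.5 CPM in LEFTY-poor cells, against 41.6 CPM in LEFTY-rich cells.

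The lower genes also included genes outside the Nodal lists. GPC6, a glypican that carries growth factors on the cell surface, stood at 102 CPM in LEFTY-poor cells, against 327 CPM in LEFTY-rich cells, in ASO-L1 (0.312, 0.287 to 0.339) and at 217 CPM, against 465 CPM, in SO-L1 (0.467, 0.421 to 0.516). IGF1R, the receptor of insulin-like growth factors, stood at 205 and 350 CPM in ASO-L1 (0.588) and at 227 and 395 CPM in SO-L1 (0.575). ITGB5, the beta-5 integrin, stood at 86.9 and 157 CPM in ASO-L1 (0.553) and at 88.3 and 161 CPM in SO-L1 (0.547). Each of these was lower by nearly the same factor in both libraries except GPC6, which was lower in ASO-L1 by more. The other named genes were GALNT17, a glycosyltransferase (0.547 and 0.474), the histone chaperone ANP32B (0.627 and 0.628), CALN1 (0.547 and 0.621), the respiratory subunit NDUFA8 (0.617 and 0.636), the phosphatase subunit PPP2R2B (0.616 and 0.625) and the basement-membrane protein FRAS1 (0.651 and 0.642). Of genes chosen after their values were seen, the transcription factor EBF2 had ratios of 0.110 (0.0584 to 0.188) in ASO-L1 and 0.276 (0.137 to 0.494) in SO-L1, at 2.29 and 6.23 CPM in LEFTY-poor cells, against 20.8 and 22.6 CPM in LEFTY-rich cells. PHLDB2, which binds membrane lipids at the cell cortex, had ratios of 0.362 (0.246 to 0.515) and 0.199 (0.0801 to 0.411), the SO-L1 value from 7 UMIs. TMEM63A had ratios of 0.205 and 0.475, the WNT receptor partner LRP4 of 0.386 and 0.460 and the secreted WNT modulator SFRP2 of 0.447 and 0.559.

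**Figure D2:**
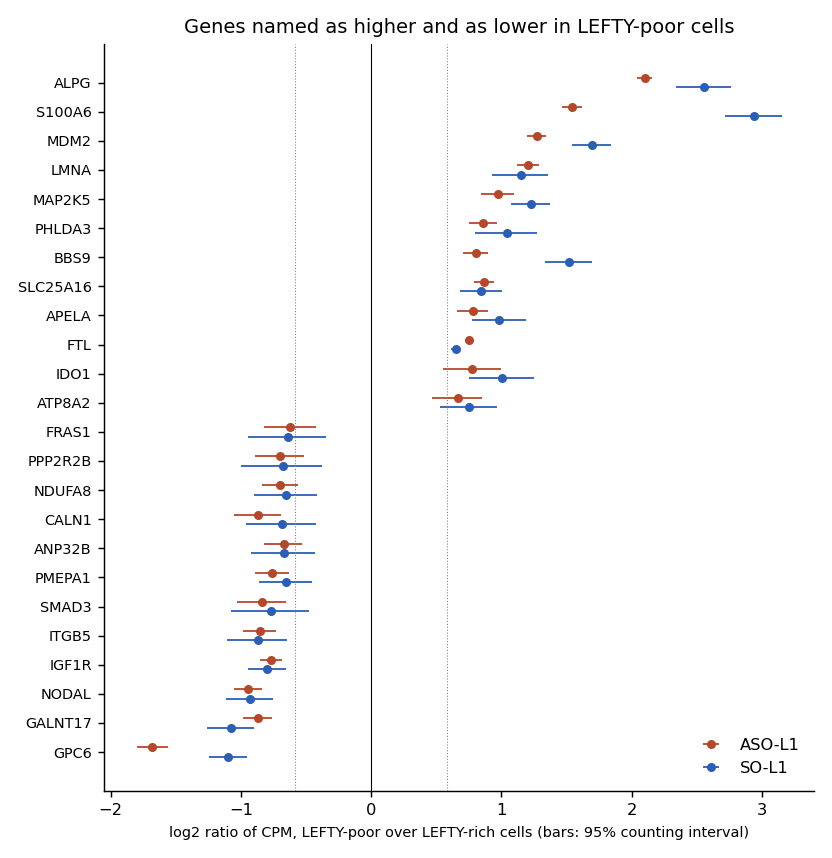
Log2 ratio of CPM in LEFTY-poor over LEFTY-rich cells (horizontal axis) for the 12 named higher and 12 named lower genes, with ASO-L1 in red above SO-L1 in blue. Bars are 95% counting intervals and dotted lines mark 1.5-fold; NODAL sits at -0.94 in ASO-L1 and -0.93 in SO-L1, and ALPG at 2.10 and 2.56.

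The 12 lower genes kept their direction in both libraries under each alternative that was run, wherever they were measured. They had been chosen as lower in these same cells, and leaving out each gene's top LEFTY-poor cell lowers that class by construction. With 0 LEFTY UMIs as the limit 7 of the 12 were measured in both libraries, 4 of them past 1.5-fold in both. Without shared barcodes all 12 were lower in both libraries, 10 of them past 1.5-fold, and NODAL had log2 ratios of -0.83 in ASO-L1 and -0.92 in SO-L1. With LEFTY-rich cells weighted to the depths of LEFTY-poor cells, NODAL had -0.96 and -0.97. With classes and levels both taken after thinning to 20000 UMIs, when the LEFTY-poor class grew to 345 and 175 cells, it had -0.76 and -0.68. The part of free RNA in these values was not tested.

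Levels ran with LEFTY over the whole range, not at the limit alone. Over cells with 0, 1 to 2, 3 to 9, 10 to 29, 30 to 99 and 100 or more LEFTY UMIs, NODAL stood at 135, 131, 181, 205, 254 and 297 CPM in ASO-L1 and at 152, 143, 183, 221, 283 and 320 CPM in SO-L1. PMEPA1 stood at 72.9, 91.3, 85.2, 107, 142 and 187 CPM in ASO-L1 and at 132, 111, 108, 135, 182 and 231 CPM in SO-L1. NODAL climbed from 3 LEFTY UMIs on and PMEPA1 from 10 on. GPC6 ran between 68.1 and 458 CPM in ASO-L1 and between 186 and 695 CPM in SO-L1. POU5F1 stayed within 949 to 1074 CPM in ASO-L1 and, leaving aside the 6 cells with no LEFTY UMI (1376 CPM), within 1036 to 1060 CPM in SO-L1. The stress genes had another shape: MDM2 stood at 281, 260, 167, 125, 107 and 107 CPM in ASO-L1 and at 348, 195, 73.4, 68.0, 65.0 and 65.0 CPM in SO-L1, so that it was highest in the cells poorest in LEFTY.

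**Figure D3:**
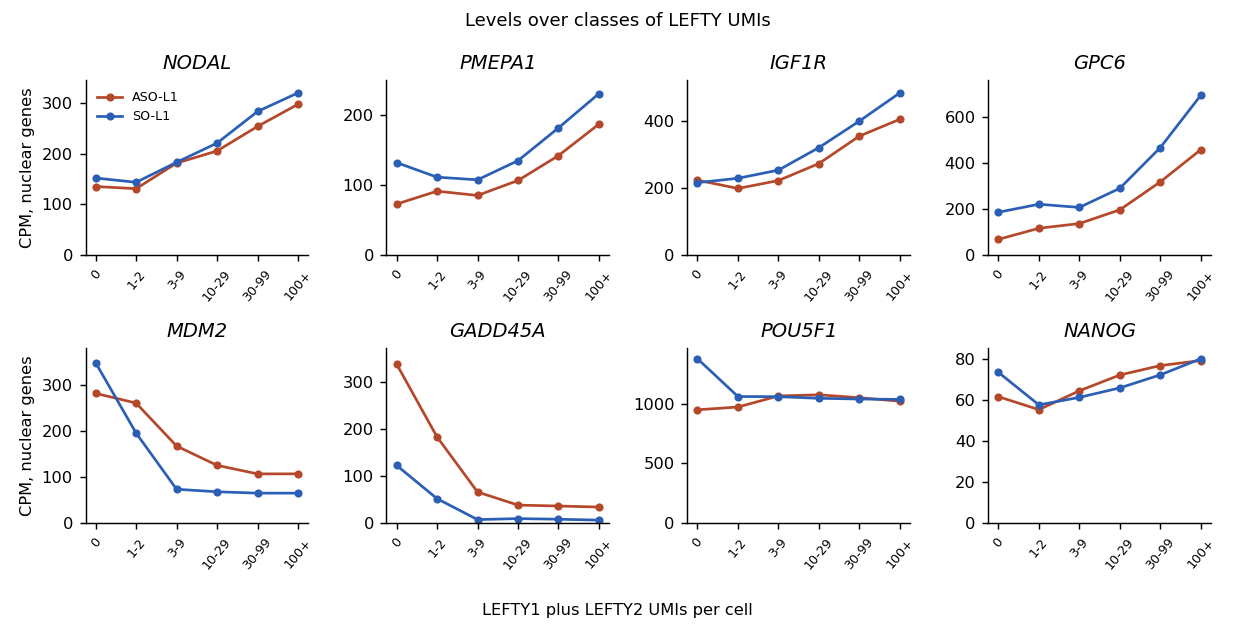
CPM of nuclear genes (vertical axes, from 0) in ordinary cells grouped by LEFTY1 plus LEFTY2 UMIs (horizontal axes), with ASO-L1 in red and SO-L1 in blue. NODAL, PMEPA1, IGF1R and GPC6 climb towards the richest cells, MDM2 and GADD45A are high at the poor end, and POU5F1 stays level apart from the 6 SO-L1 cells with no LEFTY UMI.

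Across single ordinary cells, 6 of the 10 genes that ran most closely with LEFTY were among the 12 named as lower. Both sets were drawn from the same cells by the same LEFTY UMIs, so this overlap was largely fixed in advance. Spearman's rho with LEFTY UMIs, after thinning each cell to 20000 UMIs and over 10305 genes seen in at least 10% of cells, ranked by the library with the weaker value, was largest for PMEPA1 (0.29 in ASO-L1 and 0.30 in SO-L1). It was 0.29 in both libraries for IGF1R, 0.28 and 0.29 for CALD1, an actin-binding protein, 0.27 and 0.30 for NODAL, 0.25 and 0.25 for the RNA PANCR, 0.22 and 0.24 for EBF2, and 0.20 and 0.36 for GPC6. ITGB5, TMEM63A and NDUFA8 completed the 10. TDGF1 had 0.00 and -0.05. The lowest values were those of DPPA5, a gene of early pluripotent cells (-0.19 and -0.32), NLRP7, LRFN5, APELA and RASGRP2. For scale, LEFTY1 and LEFTY2 had 0.48 and 0.50 with each other. Cells of one library share its depth and its free RNA, and these values are a description.

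Targets of p53 and stress genes were among the genes higher in LEFTY-poor cells. MDM2, the ubiquitin ligase that p53 switches on and that degrades p53, stood at 267 CPM in LEFTY-poor cells, against 110 CPM in LEFTY-rich cells, in ASO-L1 (2.41, 2.29 to 2.54) and at 213 CPM, against 65.7 CPM, in SO-L1 (3.24, 2.92 to 3.59). GADD45A, a damage and stress gene, stood at 229 and 36.1 CPM in ASO-L1 (6.33) and at 60.0 and 8.23 CPM in SO-L1 (7.29). CDKN1A, the cell-cycle inhibitor p21, stood at 56.1 and 16.8 CPM in ASO-L1 (3.35) and at 19.8 and 4.90 CPM in SO-L1 (4.04). Of the p53 targets measured in both libraries 10 of 21 were higher in both, against 1.83% of all genes, and none lower: CDKN1A, MDM2, GADD45A, SESN1, BBC3, TNFRSF10B, ZMAT3, RRM2B, PHLDA3 and POLH. The medians of the list were 0.71 in ASO-L1 and 1.04 in SO-L1 on the log2 scale, against 0.00 over all genes. CDKN1A and GADD45A were rare in LEFTY-rich cells of SO-L1 and were measured there only through their level in LEFTY-poor cells. The same held in SO-L1 for DDIT3, ATF3 and BIK of the lists that follow. The counts and medians of these lists were therefore partly fixed by the filter. In the integrated stress response 5 of 18 were higher in both, against the same 1.83%, namely ATF3, ATF5, DDIT3, PPP1R15A and HERPUD1, with medians of 0.46 and 0.31. DDIT3 (CHOP), which drives death under lasting stress, had ratios of 3.06 and 3.98. BBC3 (PUMA) and BIK, both pro-death proteins of the BCL2 family, were the 2 of 17 apoptosis genes higher in both, against the same 1.83%. Their ratios were 2.13 and 3.0 for BBC3, which is also among the p53 targets above, and 2.70 and 2.22 for BIK.

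The sum of p53 targets was raised in its median and much more in part of the cells. At 20000 UMIs per cell the p53 targets together had a lowest, median and highest count of 8, 37 and 263 UMIs in LEFTY-poor cells, against 5, 25 and 184 in LEFTY-rich cells, in ASO-L1, and of 6, 26 and 222, against 3, 18 and 92, in SO-L1. The medians of LEFTY-poor cells, 37 and 26 UMIs, lay above the upper quartiles of LEFTY-rich cells, 33 and 23 UMIs. The integrated-stress genes had medians of 52 UMIs in LEFTY-poor cells, against 32 in LEFTY-rich cells (upper quartile 47), in ASO-L1, and of 27, against 24 (upper quartile 29), in SO-L1. Counts of p53 targets above the 95th percentile of LEFTY-rich cells (51 UMIs in ASO-L1, 35 in SO-L1) were found in 36 of 119 LEFTY-poor cells of ASO-L1 (30.3%, 22.2 to 39.3%) and in 16 of 47 of SO-L1 (34.0%, 20.9 to 49.3%). That limit is a cut through a range and no cell type: 11 LEFTY-poor cells of ASO-L1 and 3 of SO-L1 lay within 5 UMIs of it. Over the 6 classes of LEFTY UMIs, from 0 upwards, the share above it was 36.1%, 27.7%, 12.8%, 7.26%, 4.15% and 4.62% in ASO-L1. In SO-L1 it was 3 of 6 cells, then 31.7%, 5.06%, 5.87%, 4.03% and 4.60%. Read from the other side, 36 of 317 ASO-L1 cells above the limit (11.4%) and 16 of 203 SO-L1 cells (7.88%) were LEFTY-poor, and the others had 3 or more LEFTY UMIs.

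NODAL was low in LEFTY-poor cells on either side of that limit. It stood at 139 CPM in those above the p53-target limit, against 129 CPM in the other LEFTY-poor cells, in ASO-L1, and at 144 CPM, against 145 CPM, in SO-L1. LEFTY-rich cells under the limit held 254 and 276 CPM. ITGB5 likewise stood at 79.6 and 90.1 CPM in ASO-L1 and at 79.0 and 92.8 CPM in SO-L1. Other named lower genes differed across the limit. GPC6 stood at 32.2 CPM above it, against 132 CPM below it, in ASO-L1, but at 281 CPM, against 186 CPM, in SO-L1. FRAS1 stood at 13.5 CPM, against 46.5 CPM, in ASO-L1, where LEFTY-rich cells under the limit held 57.5 CPM. GALNT17 and PPP2R2B were lower above the limit in both libraries, and SMAD3 and PMEPA1 were higher above it in both. MDM2, which is in the list behind the limit, stood at 638 and 107 CPM in ASO-L1 and at 504 and 74.4 CPM in SO-L1, the lower values being near those of LEFTY-rich cells under the limit, 92.8 and 54.7 CPM. ID2, a gene outside that list, followed it, at 123 CPM above the limit, against 12.3 CPM below it, in ASO-L1, and at 50.9 CPM, against 16.7 CPM, in SO-L1. BIK stood at 48.6 CPM above the limit, against 33.0 CPM below it, in ASO-L1. In SO-L1 BIK stood at 43.9 CPM, against 3.34 CPM. LEFTY-rich cells under the limit held BIK at 11.8 CPM in ASO-L1 and 7.06 CPM in SO-L1. With all cells above the limit left out of both classes, all 12 named lower genes had ratios below 1 in both libraries, 8 of them past 1.5-fold in both, with NODAL at log2 ratios of -0.97 and -0.93. Of 11 named higher genes still measured then, 9 had ratios above 1 in both libraries, 2 of them past 1.5-fold in both.

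**Figure D4:**
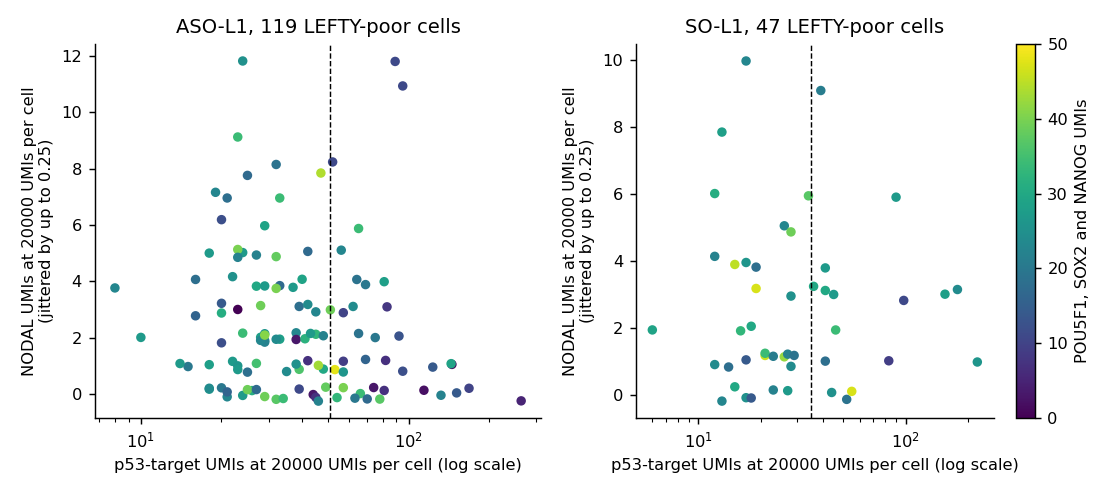
Each point is a LEFTY-poor cell, with p53-target UMIs (horizontal axis, log scale) and NODAL UMIs (vertical axis, jittered by up to 0.25) at 20000 UMIs per cell, coloured by the sum of POU5F1, SOX2 and NANOG UMIs. Dashed lines mark the limits of 51 UMIs in ASO-L1 (left) and 35 in SO-L1 (right); 36 and 16 cells lie above them, and cells with few NODAL UMIs lie on both sides.

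Pluripotency transcripts were low in part of the stressed ASO-L1 cells. The sum of POU5F1, SOX2 and NANOG was under the 5th percentile of LEFTY-rich cells in 26 of 119 LEFTY-poor cells of ASO-L1 (21.8%) and in 4 of 47 of SO-L1 (8.51%). Of the 26 in ASO-L1, 17 were also above the p53-target limit, and of the 4 in SO-L1, 2 were. DNMT3B, the de novo DNA methyltransferase, stood at 160 CPM in LEFTY-poor cells above the limit, against 629 CPM in the other LEFTY-poor cells, in ASO-L1, and at 404 CPM, against 717 CPM, in SO-L1. POU5F1 stood at 814 and 1030 CPM in ASO-L1 and at 1106 and 1092 CPM in SO-L1. So DNMT3B was lower above the limit in both libraries, and POU5F1 in ASO-L1.

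The other genes named as higher were a mixed group. ALPG, an alkaline phosphatase of naive and 8-cell-like cells, stood at 485 CPM in LEFTY-poor cells, against 113 CPM in LEFTY-rich cells, in ASO-L1 (4.29) and at 112 CPM, against 19.0 CPM, in SO-L1 (5.89), with 42.4% of its SO-L1 UMIs from 1 cell. S100A6, a calcium-binding protein, had ratios of 2.91 and 7.67, but 1 cell gave 89.6% of its SO-L1 UMIs, and without that cell the SO-L1 log2 ratio was -0.31. LMNA, the nuclear lamin A, had ratios of 2.31 and 2.22, and FTL, the light chain of ferritin, stood at 5813 and 3458 CPM in ASO-L1 (1.68) and at 3921 and 2498 CPM in SO-L1 (1.57). PHLDA3, a p53 target, had ratios of 1.82 and 2.06, BBS9 of 1.74 and 2.86, the mitochondrial carrier SLC25A16 of 1.82 and 1.80 and the peptide ligand APELA of 1.72 and 1.98. MAP2K5 (1.96 and 2.34), the tryptophan-degrading enzyme IDO1 (1.71 and 2.00) and ATP8A2 (1.58 and 1.68) were higher too. For these 3 the ASO-L1 value rested on cells with shared barcodes: without them the log2 ratios in ASO-L1 were -0.22, -0.50 and -0.12.

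BMP response genes and naive genes each gave 3 members. ID2, ID3 and ID4, inhibitors of DNA-binding factors that BMP signals commonly induce, were the 3 of 11 genes of the BMP list higher in both libraries, against 1.83% of all genes, with ratios of 5.79 and 5.18 for ID2, 1.75 and 2.36 for ID3 and 1.86 and 3.04 for ID4. ID1, the most abundant of them, had 0.846 and 0.967, and without shared barcodes the ASO-L1 log2 ratio of ID3 was -0.02. Of 10 naive-state genes measured in both, DPPA3, KHDC3L and ALPG were higher in both, against 1.83% of all genes, and NODAL lower, against 0.739%. The list medians were 0.64 and 0.41. All 13 of the 8-cell-stage genes measured in ASO-L1, of 26 listed, were higher there (median 3.06), against 9.44% of all genes. In SO-L1 2 of 3 measured were higher, CCNA1 and ALPG, against 5.38%. The filter took the mean level of both classes, so a gene rare in LEFTY-rich cells was measured only where LEFTY-poor cells held it. These counts were therefore partly fixed by the filter. The same holds for the count of the BMP list, through ID2 and ID4 in SO-L1. Without its top LEFTY-poor cell CCNA1 had a log2 ratio of -0.64 in SO-L1. The panel of 8-cell markers is shorter than this list, with 7 genes, and holds neither CCNA1 nor ALPG. In LEFTY-poor cells 1 cell gave 44.0% of the UMIs of that panel in ASO-L1 and 100% of its 14 UMIs in SO-L1. Without the cells that had 5 or more UMIs of that panel, NODAL had log2 ratios of -0.87 and -0.92 and MDM2 of 1.19 and 1.48.

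**Figure D5:**
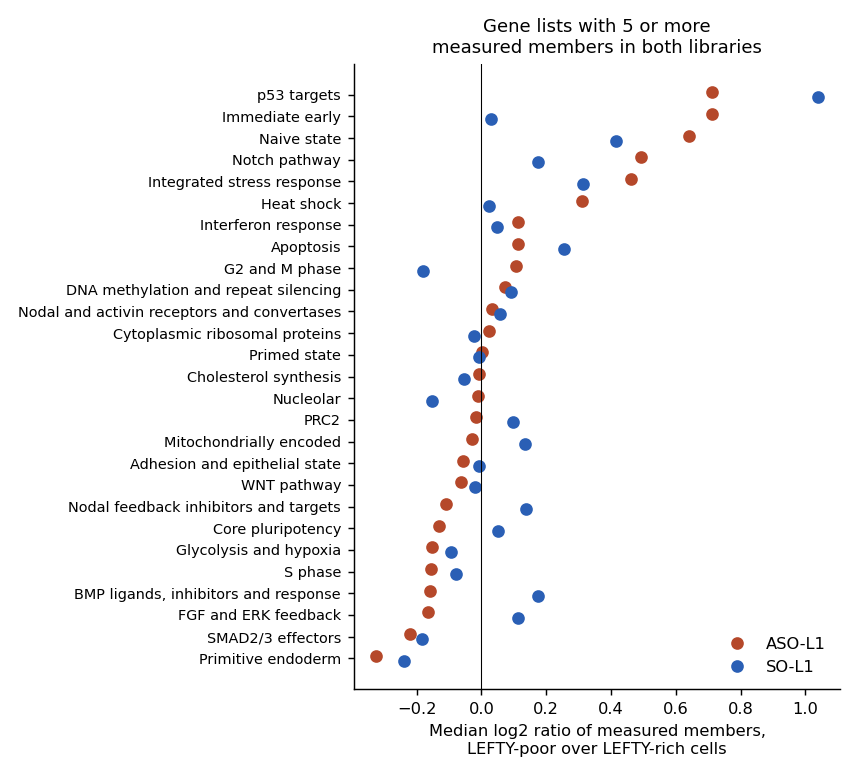
Median log2 ratio of CPM in LEFTY-poor over LEFTY-rich cells (horizontal axis) over the measured members of each gene list with at least 5 of them in both libraries, with ASO-L1 in red and SO-L1 in blue. The p53 targets stand highest in both, at 0.71 and 1.04, and most lists lie near the median of all genes, 0.00.

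Most other lists lay near the median of all genes. The S phase list had medians of -0.16 and -0.08 and the G2 and M phase list of 0.11 and -0.18. Past 1.5-fold in both libraries were 0 of 40 and 0 of 51 genes, against 1.83% of all genes higher and 0.739% lower. Cytoplasmic ribosomal protein genes had 0.02 and -0.02, cholesterol synthesis -0.01 and -0.05, nucleolar genes -0.01 and -0.15 and primed-state genes 0.00 and -0.01. The FGF list had -0.17 and 0.11, the WNT list -0.06 and -0.02 and the Notch list 0.49 and 0.17. HES4 was the 1 of 7 Notch genes higher in both (2.17 and 1.53), against 1.83% of all genes. Of measured Notch genes 5 of 12 were higher in ASO-L1, against 9.44% of all genes, and 3 of 7 in SO-L1, against 5.38%. None was lower in either library. Immediate-early genes had 0.71 in ASO-L1 but 0.03 in SO-L1, and heat-shock genes 0.31 and 0.02. Mitochondrially encoded genes, which were left out of all counts, had -0.03 and 0.13. Glycolysis and hypoxia genes had -0.15 and -0.09, interferon genes 0.11 and 0.05, adhesion genes -0.06 and -0.01, PRC2 genes -0.02 and 0.10, DNA methylation genes 0.07 and 0.09 and primitive-endoderm genes -0.33 and -0.24. In SO-L1 3 of 8 primitive-endoderm genes were lower, against 2.64% of all genes, and none higher. In ASO-L1 1 of 8 was lower, against 3.6%, and 1 higher, against 9.44%. The laminin LAMB1, a member of that list, was lower in both (0.533 and 0.618).

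The genes named for a difference between the oligonucleotides in LEFTY-poor cells all differed in the same direction in LEFTY-rich cells. In LEFTY-poor cells 1258 of 9623 genes passed 1.5-fold upwards in ASO-L1 relative to SO-L1 (13.1%) and 1600 downwards (16.6%), with 119 cells set against 47. NODAL had a ratio of 0.915 (0.793 to 1.06), and of 0.924 among LEFTY-rich cells. KHDC1L, an 8-cell-stage gene, stood at 358 CPM in ASO-L1 LEFTY-poor cells, against 2.26 CPM in SO-L1 (ratio 158, 61.6 to 581), with 77.7% of its ASO-L1 UMIs from 1 cell. ANXA1, an annexin, stood at 162 CPM, against 1.13 CPM (143, 39.4 to 1181), where the SO-L1 level came from 2 UMIs. The stress factor DDIT3 stood at 170 CPM, against 31.1 CPM (5.45, 4.15 to 7.29), and ATF5 at 202 CPM, against 36.8 CPM (5.48, 4.27 to 7.15). Among LEFTY-rich cells the ratios of these 2 were 7.1 and 5.72. CCNA1 (10.9, 7.91 to 15.4) and TNFRSF12A (8.47, 5.73 to 13.1) had ratios of 5.52 and 4.06 among LEFTY-rich cells.

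Genes lower in ASO-L1 were SYN3, at 176 CPM, against 653 CPM in SO-L1 (0.270, 0.247 to 0.294), COMMD1 (0.268), PDCD10 (0.302), GNGT1 (0.317), TCF25 (0.319) and TMEM135 (0.333). Their ratios among LEFTY-rich cells were 0.350, 0.385, 0.510, 0.386, 0.459 and 0.569, lower in ASO-L1 in every case. By list, 14 of 21 integrated-stress genes and 7 of 9 immediate-early genes were higher in ASO-L1 LEFTY-poor cells, against 13.1% of all genes. Their medians were 0.97 and 1.66 on the log2 scale, against 0.80 and 1.16 among LEFTY-rich cells. All 6 measured 8-cell-stage genes and 16 of 51 G2 and M phase genes were higher, against the same 13.1%. An 8-cell-stage gene rare in SO-L1 was measured only where ASO-L1 held it. Lower were 9 of 25 cholesterol-synthesis genes, against 16.6% of all genes. With 1 library each, oligonucleotide and library cannot be told apart.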

How the data were processed

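The authors deposited raw UMI counts per gene and barcode for 2 libraries, 36601 genes each. The submitters' processing notes name Cell Ranger 7.1.0 and hg38. Not given in the sources used here are the annotation release, the cell calling and whether intronic reads counted. Barcodes were filtered by genes, UMIs, mitochondrial share, CER1 and PAX6, and classed by LEFTY UMIs. LINE1 RNA was not measured, since rows are genes. Counts were summed per library and class and divided by the UMIs of nuclear genes. Ratios carry exact conditional binomial intervals and shares exact Clopper-Pearson intervals, at 95%, which cover counting error only. A sum of 0 was set to 3 UMIs. Summed UMIs were 6147995 in LEFTY-poor and 295694682 in LEFTY-rich cells of ASO-L1, and 1962582 and 191167315 in SO-L1, so values of SO-L1 LEFTY-poor cells are the least precise. For shares of cells with a UMI and per-cell values, each cell was thinned to 20000 UMIs (seed 11). No doublet caller was run.

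Named genes were the 12 highest and 12 lowest by the interval bound nearest to 1, in the weaker library, among genes past 1.5-fold in both with at least 100 expected UMIs, without clone-style names; the 6 highest and 6 lowest between oligonucleotides; from each list the 2 largest and 2 most abundant members; and a fixed set of pathway genes. The cells, the 33 lists and the rules were chosen with earlier results of these data known. Values of 1 list gene are not reported here. The summing and calling step was tested on simulated data. Gene positions are those of GENCODE for GRCh38, by gene identifier, and promoters those of RefSeq (GRCh38.p14). Python 3.11.15, numpy 2.4.6, scipy 1.17.1, pandas 2.3.3 and matplotlib 3.10.9 were used.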

Additional observations from a re-analysis of the deposited data

How the results depend on the processing

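With 166 LEFTY-poor cells, and 47 of them in SO-L1, both the counts of genes past 1.5-fold and the genes counted moved between settings. After thinning, 84 of the 166 genes then higher in both were among the 173 of the report. Of the 57 then lower in both, 34 were among the 70 of the report. No paired analysis was possible because each oligonucleotide has 1 library. Of 4768 log2 ratios of named genes under other settings, 3910 stayed within the counting interval of the reported value and 858 did not. The sign differed from that of the reported value in 175, and in 12 of these the reported value was past 1.5-fold. The share of LEFTY-poor cells was 0.680% in ASO-L1 and 0.146% in SO-L1 with 0 LEFTY UMIs as the limit, 4.46% and 3.62% with at most 5, 6.52% and 4.25% after thinning, and 2.95% in ASO-L1 without shared barcodes. Of the counts of genes, those that moved by over 1.5 times were these. With 0 LEFTY UMIs (36 and 6 cells) 137 genes were higher in SO-L1, 937 lower in ASO-L1, 163 lower in SO-L1, 12 higher in both and 31 lower in both. After thinning 727 were higher and 273 lower in ASO-L1. A minimum of 30000 UMIs left 102 higher in both, and a mitochondrial share of 4% to below 15% left 92. With no filter on low levels 6425 and 5505 were higher and 1772 and 1498 lower in ASO-L1 and SO-L1, 2145 higher in both and 319 lower in both. Without shared barcodes 853 were lower in ASO-L1, and 43 of the 76 then lower in both were among the 70 of the report. The next 2 settings were chosen after seeing the data. Without cells above the p53-target limit 508 and 230 were higher in ASO-L1 and SO-L1, 248 lower in ASO-L1, 41 higher in both and 38 lower in both, 30 of these among the 70. Without each gene's top LEFTY-poor cell, which by construction lowers that class, 799 and 274 were higher and 808 and 550 lower in ASO-L1 and SO-L1, 84 higher in both and 126 lower in both. Counts between the oligonucleotides were run under 3 settings (scaling, centring and weight of cells), and did not move that far there.

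Of values reported past 1.5-fold, those that changed sign, on the log2 scale, were in ASO-L1 without shared barcodes MAP2K5 (-0.22), IDO1 (-0.50), ATP8A2 (-0.12) and ID3 (-0.021), and IDO1 with 0 LEFTY UMIs (-0.25). Without each gene's top cell they were in SO-L1 S100A6 (-0.31), CCNA1 (-0.64) and S100A4 (-0.56). Without cells above the p53-target limit, which by construction lowers that list, they were the p53 list median in SO-L1 (-0.010), PHLDA3 (-0.010) and ATP8A2 (-0.15) in SO-L1, and TNFRSF12A (-0.018) and IER3 (-0.14) in ASO-L1. NODAL ran between -1.01 and -0.76 in ASO-L1 and between -1.01 and -0.68 in SO-L1 over all 16 settings. Other causes were not tested.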
